A study of Homo sapiens with 26 samples.

Results

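A set of 10 genes that carry glucose into the cell, break it down and export the lactate formed was followed in single cell-derived cell lines (SCDCLs) of pancreatic cancer. They were SLC2A1 and SLC2A3 for uptake, HK1, HK2, PFKP and PGK1 for glycolysis, LDHA and LDHB for the exchange of pyruvate and lactate, and SLC16A1 and SLC16A3 for lactate transport. The rule chose them by name, as the rows whose Ensembl identifier carries one of these symbols among the 41078 in the deposited table. All 10 had a mean of at least 1 TPM, a transcript abundance scaled by transcript length and by the library's total, as did 14763 genes in all.

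Glucose enters most tumour cells down its gradient through facilitative transporters of the SLC2A family, GLUT1 and GLUT3 among them. Hexokinase traps it as glucose 6-phosphate, phosphofructokinase commits it to glycolysis, and phosphoglycerate kinase makes ATP further down. Lactate dehydrogenase then reduces pyruvate to lactate and regenerates NAD+, and monocarboxylate transporters move lactate across the membrane together with a proton. Pancreatic ductal adenocarcinoma, a tumour poor in blood vessels, is known for high glucose uptake and lactate production, and hypoxia-inducible factor 1 (HIF1) and MYC are known activators of several of these genes.

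Each of the 26 libraries came from 1 SCDCL, a culture grown from a single cell, and 1 library was made per SCDCL from polyadenylated RNA. In all, 12 libraries are labelled BxPC3, a line of the classical subtype, and 14 are labelled Panc-1, a basal-like line. Both were kept in DMEM with high glucose and 10% fetal bovine serum, and no group was grown in low glucose or low oxygen as far as the protocols say. The labels give gemcitabine as the treatment of every library, while the methods describe the drug only for separate viability assays. The response of each SCDCL to gemcitabine was not analysed here. Totals ranged from 27035724 to 34945608 estimated counts per library.

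The labels did not match a gene that separates both lines. SMAD4, a mediator of TGF-beta signalling that BxPC3 has lost by deletion and Panc-1 retains, was under 1 TPM in 12 libraries, at 0.0440 TPM at most, and between 28.1 and 52.2 TPM in the other 14. The 12 SMAD4-low libraries comprised 7 labelled Panc-1 and 5 labelled BxPC3, and the 14 SMAD4-expressing libraries comprised 7 of each label. Every library is therefore named by its label and its library number, and no library was moved to another label. The split at 1 TPM was made from the same libraries. Hence levels on its sides are given as lowest, median and highest value and by whether the ranges overlap, without a test.

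The marker genes went with the split as well. Among 5 epithelial markers, the adhesion genes CDH1 and EPCAM and the keratin KRT7 were higher in every SMAD4-low library. The keratin KRT8 went the other way, at 298 to 781 TPM against 704 to 4005 TPM, with 13 of 14 SMAD4-expressing libraries above the SMAD4-low range, and KRT19 overlapped at 1154 to 3176 against 558 to 2075 TPM. The list summed to 3627 to 7523 TPM against 1334 to 5705 TPM. Among 5 mesenchymal markers, VIM and ZEB1 were higher in every SMAD4-expressing library while FN1 and SNAI2 were higher in every SMAD4-low library, and the sums were 56.2 to 190 TPM against 3109 to 4565 TPM. Of the markers of other cell types, 1 of 5 fibroblast genes (COL1A1), 1 of 4 immune genes (CD68) and 2 of 3 endothelial genes (PECAM1 and CDH5) reached a mean of 1 TPM, and no listed marker was at 0 in all libraries. The sums were 9.72 to 28.6 against 2.68 to 39.4 TPM and 5.51 to 27.5 against 42.7 to 142 TPM for the fibroblast and immune lists in that order. CD68 was higher in every SMAD4-expressing library, at 42.5 to 141 against 5.27 to 26.9 TPM, and the endothelial cadherin CDH5 was at 1.04 to 13.6 TPM in the SMAD4-low and at 0.0427 TPM at most in the SMAD4-expressing libraries. The fibroblast gene DCN was at 1.07 TPM at most and the leukocyte gene PTPRC at 0.535 TPM at most. The part of these differences in the results below was not tested.

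The genes lie on 7 chromosomes (GRCh38, GENCODE 44). SLC2A1 is at chr1:42925353-42958893 and SLC16A1 at chr1:112911847-112957593, both on the minus strand. HK2 is at chr2:74834127-74893359, HK1 at chr10:69269984-69401884 and PFKP at chr10:3066333-3137718, all on the plus strand. LDHA is at chr11:18394560-18408425 and SLC16A3 at chr17:82217934-82261129 on the plus strand, and PGK1 is at chrX:77910739-78129295. SLC2A3 at chr12:7919230-8019007 and LDHB at chr12:21635342-21757857 are on the minus strand.

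Since several of the 10 genes are textbook targets of HIF1, the 250 bases before their RefSeq start sites (GRCh38.p14) were searched for ACGTG and GCGTG on both strands, the core of the hypoxia response element. CACGTG, which holds the first of these letters on both strands, was counted as 1 stretch. Entries existed for 8 of the 10 genes, SLC2A3 and SLC16A1 having none. Over all genes, 43.2% of 34943 such windows held at least 1 match and 5.53% at least 3 separate stretches. Of 23 windows of the 8 genes, 11 held a match, or 47.8%. The windows are shown for 4 genes that recur below, SLC2A1 and HK2, which were both higher in the SMAD4-low libraries, and LDHA and PGK1, whose correlation with SLC2A1 is described below. Each is the window nearest to the annotated gene start, at chr1:42958869-42959118 on the minus strand for SLC2A1, chr2:74833877-74834126 for HK2, chr11:18394313-18394562 for LDHA and chrX:78103998-78104247 for PGK1, the last 3 on the plus strand. PGK1 has a single window, whose start site lies 193509 bases from the annotated gene start. For SLC2A1, HK2 and LDHA this distance is 25, 0 and 3 bases. The windows read 5′ to 3′ along the gene, with matches in capitals.
SLC2A1: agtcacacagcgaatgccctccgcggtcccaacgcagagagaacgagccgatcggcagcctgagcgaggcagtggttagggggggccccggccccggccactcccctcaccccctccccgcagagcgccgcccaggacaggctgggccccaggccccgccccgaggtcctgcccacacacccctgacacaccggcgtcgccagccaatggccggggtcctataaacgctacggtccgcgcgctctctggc
HK2: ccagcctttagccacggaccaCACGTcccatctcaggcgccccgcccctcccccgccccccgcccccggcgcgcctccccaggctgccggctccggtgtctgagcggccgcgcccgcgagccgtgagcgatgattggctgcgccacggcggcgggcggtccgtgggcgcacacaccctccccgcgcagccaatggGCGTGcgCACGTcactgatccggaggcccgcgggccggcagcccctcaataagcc
LDHA: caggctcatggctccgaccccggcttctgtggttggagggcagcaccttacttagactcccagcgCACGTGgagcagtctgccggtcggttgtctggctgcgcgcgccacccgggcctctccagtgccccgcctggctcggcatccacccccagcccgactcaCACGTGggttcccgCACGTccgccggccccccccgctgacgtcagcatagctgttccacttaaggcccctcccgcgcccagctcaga
PGK1: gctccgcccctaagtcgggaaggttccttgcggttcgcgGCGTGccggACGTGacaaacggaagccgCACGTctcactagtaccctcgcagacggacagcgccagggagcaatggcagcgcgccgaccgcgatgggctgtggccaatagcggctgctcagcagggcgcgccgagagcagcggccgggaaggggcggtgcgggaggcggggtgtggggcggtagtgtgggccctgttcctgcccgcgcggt
The windows of HK2, LDHA and PGK1 held 3 separate stretches each, and the window of SLC2A1 held none. LDHB held none in its single window, SLC16A3 held a match in 3 of 5 windows, PFKP in 2 of 4 and HK1 in 1 of 7. These counts are over all windows of a gene. In SLC16A3, PFKP and HK1 the window nearest to the annotated gene start held no match. Every nearest window with a match is thus among the 4 shown, which do not stand for the 8 genes. SLC16A3, whose window is not shown, is also described below by its correlation with SLC2A1. A match is a description of the letters, and these data hold no measurement of binding.

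Of the 10 genes, 3 were higher in every SMAD4-low library (SLC2A1, HK2 and SLC16A1), 2 were higher in every SMAD4-expressing library (PFKP and SLC16A3) and 5 overlapped. Among all 14763 genes with a mean of at least 1 TPM, the ranges did not overlap in 30.3%, with 14.5% higher in the SMAD4-low and 15.8% higher in the SMAD4-expressing libraries. With 10 genes, the members' count is not read as a difference from that background. The median difference of the 10 genes was 0.55 on the log2(TPM + 1) scale, SMAD4-low minus SMAD4-expressing, against -0.02 over all genes. In bulk libraries, fewer cells of a type and less RNA per cell cannot be told apart.

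**Figure D1:**
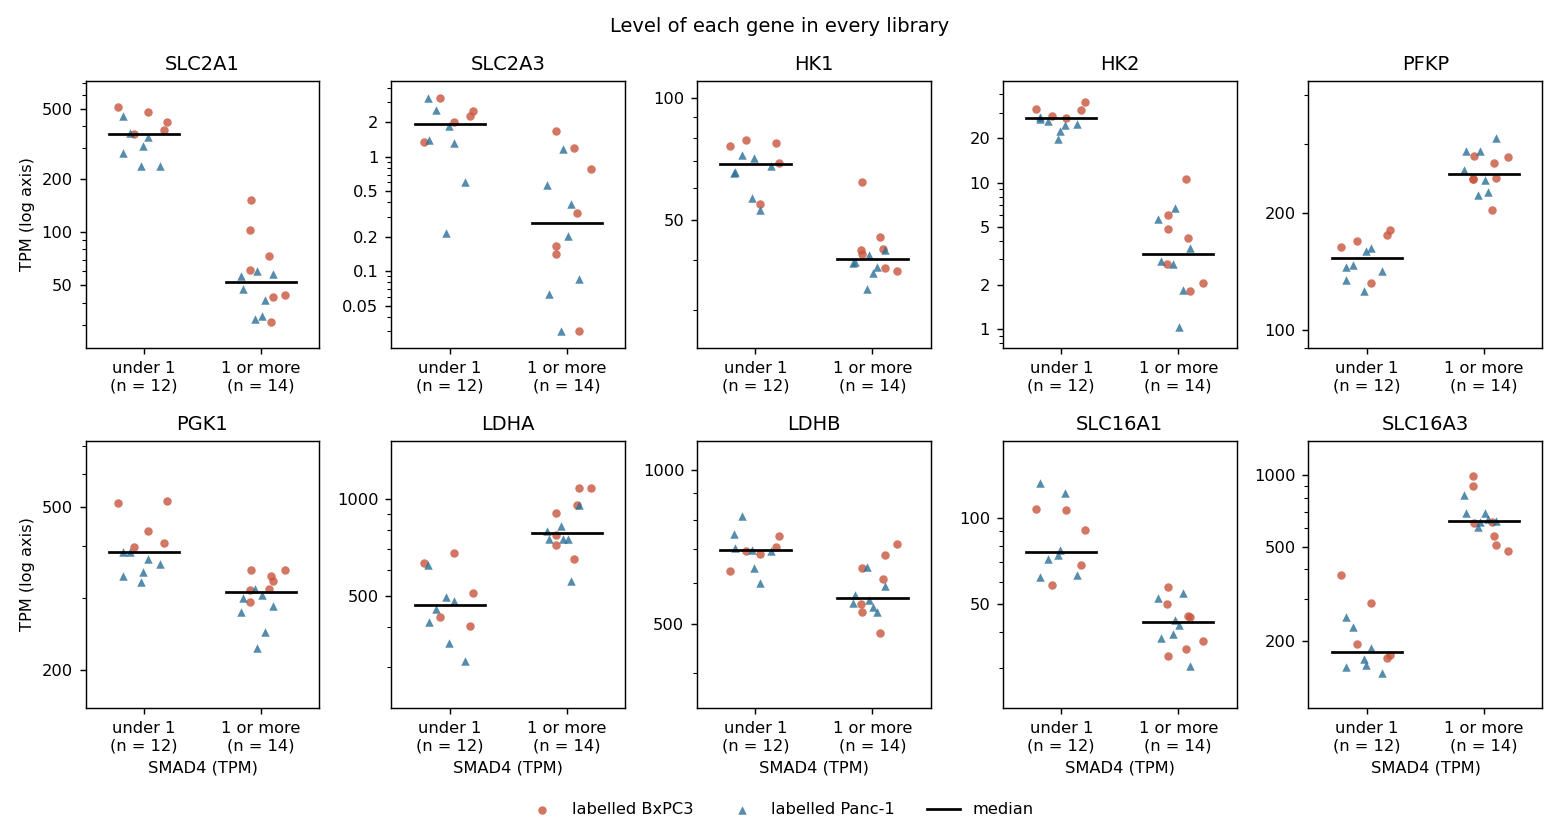
Level of each of the 10 genes in TPM (log axis) in every library, with 12 SMAD4-low libraries on the left and 14 SMAD4-expressing libraries on the right of each panel, circles for libraries labelled BxPC3, triangles for those labelled Panc-1 and bars for medians. SLC2A1, HK2 and SLC16A1 lie higher on the left and PFKP and SLC16A3 higher on the right without overlap, and both labels spread over both sides.

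SLC2A1 encodes GLUT1, the main basal glucose transporter of most tumour cells. It lay between 237 and 512 TPM in the SMAD4-low libraries, with a median of 361 TPM, and between 31.0 and 152 TPM in the SMAD4-expressing libraries, with a median of 52.0 TPM. The ratio of the medians was 6.95, and the lowest SMAD4-low library still had 1.57 times the level of the highest SMAD4-expressing library. The SMAD4-low maximum was library 21, labelled BxPC3, and the minimum was library 3, labelled Panc-1. On the SMAD4-expressing side, libraries 23 and 20, both labelled BxPC3, were highest at 152 and 103 TPM, and the remaining 12 were at 73.6 TPM or less.

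SLC2A3 encodes GLUT3, a transporter with a high affinity for glucose that is best known from neurons. It was near the limit of detection, from 0.217 to 3.29 TPM with a median of 1.92 TPM in the SMAD4-low libraries and from 0.0298 to 1.67 TPM with a median of 0.262 TPM in the SMAD4-expressing ones. These levels rest on 10.6 to 147 and on 1.18 to 66.9 estimated counts, and the ranges overlapped. SLC2A3 made up 0.902% at most of the summed TPM of both transporters in the SMAD4-low and 1.90% at most in the SMAD4-expressing libraries. Its near-identical neighbour SLC2A14, with which reads can be shared, was at 1.18 TPM at most, so the level of SLC2A3 is uncertain at this depth.

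Both hexokinases were lower in the SMAD4-expressing libraries, with HK2 much more so than HK1. HK2, the inducible hexokinase that binds mitochondria and is high in many tumours, was between 19.9 and 35.2 TPM in the SMAD4-low libraries with a median of 27.4 TPM. It was between 1.04 and 10.5 TPM in the SMAD4-expressing libraries with a median of 3.23 TPM, and the ratio of the medians was 8.49. HK1, the hexokinase most tissues express constantly, ranged from 52.9 to 78.8 TPM with a median of 68.7 TPM and from 33.9 to 62.3 TPM with a median of 40.2 TPM, a ratio of 1.71. The overlap in HK1 came from library 23, labelled BxPC3, at 62.3 TPM, and without it the other 13 SMAD4-expressing libraries, at 45.5 TPM or less, all lay below the SMAD4-low range.

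Accordingly, the make-up of hexokinase messages differed. HK2 was 23.8 to 33.7% of the summed TPM of HK1 and HK2 in the SMAD4-low libraries and 2.73 to 18.8% in the others, and HK1 was the larger part in all 26. The sum of HK1 and HK2 was 76.8 to 109 TPM against 36.6 to 68.3 TPM and did not overlap either. Shares within a library do not depend on the scaling between libraries.

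PFKP, the platelet-type phosphofructokinase, went the other way. It lay between 126 and 180 TPM in the SMAD4-low libraries with a median of 153 TPM and between 203 and 310 TPM in the SMAD4-expressing libraries with a median of 251 TPM, a ratio of 1.64 in favour of the latter. It was the most abundant of 3 phosphofructokinase messages in every library, with 57.4 to 71.0% of the summed TPM of PFKP, PFKL and PFKM on the SMAD4-low side and 68.1 to 83.7% on the SMAD4-expressing side. Those shares overlapped, whereas the sums of the 3 genes, 193 to 298 against 299 to 380 TPM, did not.

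PGK1, which makes ATP by transferring a phosphate from 1,3-bisphosphoglycerate to ADP, was among the steadier genes. It ranged from 328 to 515 TPM with a median of 388 TPM in the SMAD4-low libraries and from 227 to 351 TPM with a median of 310 TPM in the SMAD4-expressing ones, with overlap and a ratio of medians of 1.25. In all, 9 of 12 SMAD4-low libraries lay above the highest SMAD4-expressing library. The testis-specific copy PGK2 was at 0 TPM in all libraries.

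The lactate dehydrogenase subunits moved in opposite directions between the sides. LDHA, the muscle-type subunit that favours the formation of lactate, ranged from 312 to 681 TPM with a median of 466 TPM in the SMAD4-low libraries and from 554 to 1085 TPM with a median of 784 TPM in the SMAD4-expressing ones. LDHB, the heart-type subunit that favours the oxidation of lactate, ranged from 602 to 814 TPM with a median of 696 TPM and from 479 to 717 TPM with a median of 562 TPM. The ranges overlapped for each gene on its own, with ratios of medians of 1.68 for LDHA, higher in the SMAD4-expressing libraries, and 1.24 for LDHB, higher in the SMAD4-low libraries.

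Taken as a share within each library, the subunits did not overlap. LDHA was 31.0 to 49.9% of the summed TPM of LDHA and LDHB in the SMAD4-low libraries, with a median of 39.4%, and 51.2 to 62.4% in the SMAD4-expressing libraries, with a median of 57.9%. LDHB was hence the more abundant message in all 12 SMAD4-low and LDHA in all 14 SMAD4-expressing libraries. The margin was narrow, since libraries 21 and 26, both labelled BxPC3 and SMAD4-low, had 49.9% and library 14, labelled Panc-1 and SMAD4-expressing, had 51.2%. The summed level of both genes overlapped, at 998 to 1372 against 1081 to 1801 TPM.

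The lactate transporters also differed in opposite directions between the sides. SLC16A3 encodes MCT4, a low-affinity carrier known for lactate export from glycolytic cells. It was between 146 and 381 TPM in the SMAD4-low libraries with a median of 180 TPM and between 480 and 994 TPM in the SMAD4-expressing libraries with a median of 639 TPM, a ratio of 3.55. SLC16A1 encodes MCT1, a carrier of higher affinity that works in both directions. It was between 58.4 and 133 TPM with a median of 76.0 TPM in the SMAD4-low libraries and between 30.3 and 57.6 TPM with a median of 43.2 TPM in the SMAD4-expressing ones, a ratio of 1.76 the other way. The gap for SLC16A1 was small, and its ranges overlapped when TPM was replaced by CPM, counts scaled by the library total and TMM factors, or divided by median-of-ratios size factors, while the 4 other genes without overlap stayed apart.

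SLC16A3 was the more abundant carrier message throughout. It made up 60.4 to 77.9% of the summed TPM of SLC16A1 and SLC16A3 in the SMAD4-low libraries and 91.9 to 95.5% in the SMAD4-expressing libraries, without overlap. The sum of both genes was 209 to 489 TPM against 517 to 1052 TPM and did not overlap, unlike that of LDHA and LDHB. The libraries highest in SLC16A3 were number 21 on the SMAD4-low and number 20 on the SMAD4-expressing side, both labelled BxPC3.

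**Figure D2:**
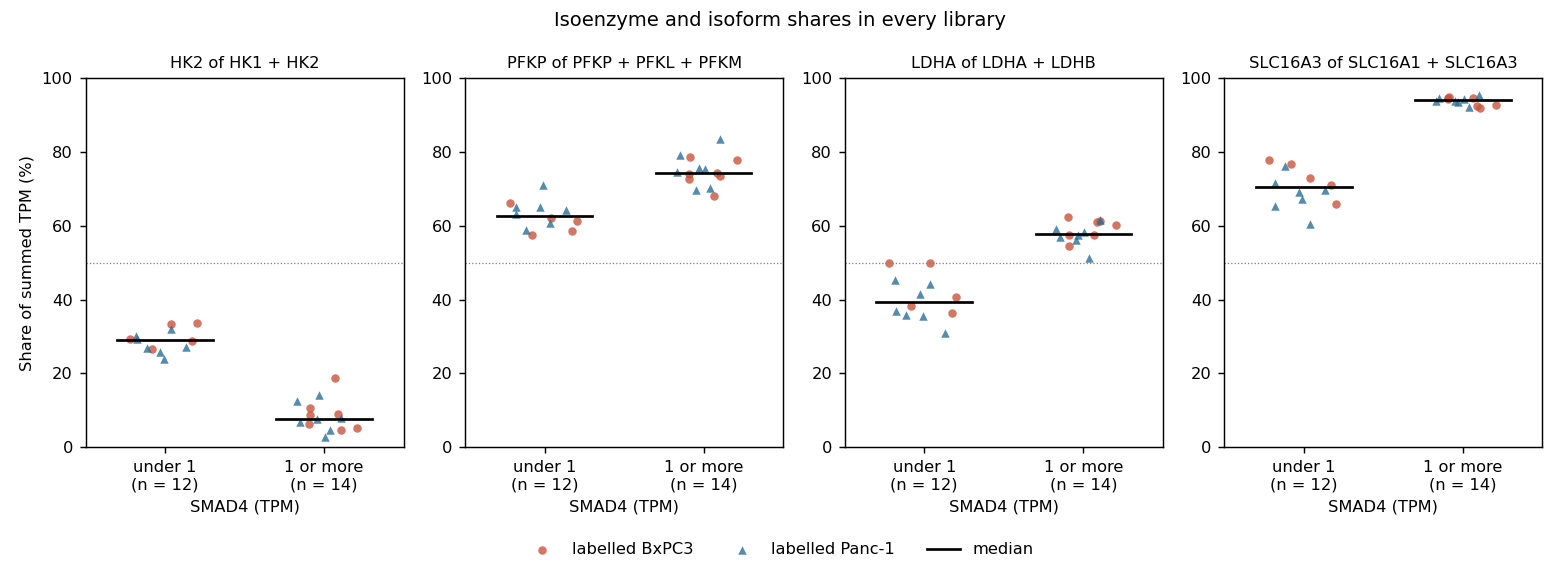
Share of the summed TPM of related genes, in percent, taken by HK2, PFKP, LDHA and SLC16A3 in every library (points), with medians as bars and a dotted line at 50%. The HK2, LDHA and SLC16A3 shares of the 12 SMAD4-low libraries do not overlap those of the 14 SMAD4-expressing libraries, the LDHA shares lie on opposite sides of the dotted line, and the PFKP shares overlap.

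Copies and isoform length were checked as well, since both enter TPM. The 16 pseudogene copies of these genes in the table were at 0.464 TPM at most, and LDHC, the testis-specific lactate dehydrogenase, was at 1.20 TPM at most. The mean transcript length that enters TPM overlapped between the sides for all 10 genes, and it did not overlap for 3.74% of all genes. For SLC2A3 its median was still 2636 bases (2062 to 3439) in the SMAD4-low and 1327 bases (209 to 3430) in the SMAD4-expressing libraries. Of the latter, 11 lay below the SMAD4-low range. For SLC16A3, 13 SMAD4-expressing libraries lay above that range, at 2058 to 2159 against 1934 to 2087 bases over all libraries of each side.

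Genes around the pathway were counted from 8 lists holding 90 genes, of which 70 had a mean of at least 1 TPM. On the SMAD4-low side 13 of the 70 were higher without overlap, on the SMAD4-expressing side 9, and 48 overlapped, which is near the background of 30.3% of all genes without overlap (14.5% and 15.8% by direction) and is not read as a result about these lists. The median difference was 0.14 on the log2(TPM + 1) scale, against -0.02 over all genes.

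The other steps of glycolysis overlapped for 13 of 14 genes, the exception being ENO1, the main enolase, at 1153 to 1475 TPM in the SMAD4-low and 1859 to 2749 TPM in the SMAD4-expressing libraries. Over all genes 30.3% did not overlap, and nothing is read from the count of this list. ENO2, the neuronal enolase, was at 3.78 to 16.8 and 13.7 to 52.2 TPM, and PKM, the pyruvate kinase of tumour cells, at 1286 to 2917 and 877 to 1520 TPM, both with overlap. ADPGK, an ADP-dependent glucokinase, had medians of 104 and 54.8 TPM, with overlap. Of 4 expressed PFKFB-type enzymes, which set fructose 2,6-bisphosphate, PFKFB3 was higher in every SMAD4-low library, at 22.2 to 40.6 against 8.20 to 17.7 TPM.

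Among 7 other glucose transporters, SLC2A10 was higher in the SMAD4-low libraries, at 6.43 to 14.9 against 0.0246 to 0.690 TPM. SLC2A11 and SLC2A12 were higher in the SMAD4-expressing libraries, with medians of 3.73 and 11.4 TPM for SLC2A11 and of 0.851 and 6.32 TPM for SLC2A12. SLC2A8, named here after its values were seen, overlapped at 23.7 to 52.6 against 38.6 to 137 TPM, and its median of 85.1 TPM in the SMAD4-expressing libraries was above that of SLC2A1 there, 52.0 TPM. Of 6 genes of lactate and pyruvate transport or use, SLC16A7, which encodes the pyruvate carrier MCT2, was at 4.22 to 9.21 against 0.0538 to 0.651 TPM. MPC2, a subunit of the mitochondrial pyruvate carrier, was at 17.9 to 24.9 against 30.5 to 42.9 TPM, and LDHD, a D-lactate dehydrogenase, had medians of 0.313 and 1.95 TPM. BSG, the chaperone that brings MCT1 and MCT4 to the membrane, overlapped with medians of 871 and 770 TPM.

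At the gate from pyruvate to the mitochondrial cycle, 9 of 11 genes overlapped. Over all genes 30.3% did not, and nothing is read from this count. PDP1, a phosphatase that activates pyruvate dehydrogenase, was at 28.1 to 64.4 TPM in the SMAD4-low and 6.36 to 14.6 TPM in the SMAD4-expressing libraries, and PDK3, a kinase that inactivates it, was at 5.26 to 7.08 and 0.338 to 3.89 TPM. Of 4 expressed genes of gluconeogenesis, 1 did not overlap, FBP2, a fructose bisphosphatase, with medians of 2.40 and 0.220 TPM.

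Among 11 regulators, 4 were higher in every SMAD4-low library, 2 were higher in every SMAD4-expressing library and 5 overlapped. The shares of all genes in these directions were 14.5% and 15.8%, and nothing is read from so small a count. The median difference of the 11 was -0.14 on the log2(TPM + 1) scale. HIF1A, the oxygen-regulated subunit of HIF1, was at 190 to 533 against 40.7 to 122 TPM, and MYC was at 92.9 to 244 against 42.9 to 76.0 TPM. TXNIP and ARRDC4, glucose-responsive arrestin genes whose products restrain glucose uptake, were at 33.8 to 154 against 0.517 to 7.40 TPM and at 2.29 to 8.49 against 0.234 to 2.22 TPM. The 2 genes in the other direction, named here after their values were seen, were ARNT, the partner subunit of HIF1A, at 12.4 to 20.7 against 23.6 to 37.3 TPM, and EGLN1, a prolyl hydroxylase that marks HIF1A for breakdown, at 12.9 to 22.5 against 22.7 to 31.7 TPM. HIF1A levels are messages, and the HIF1A protein is set mainly by its breakdown. Of 13 expressed genes known to be induced by hypoxia, 3 were higher and 2 lower in the SMAD4-low libraries without overlap, beside 14.5% and 15.8% of all genes, and nothing is read from a count this small. NDRG1 was at 19.6 to 182 against 1.18 to 11.2 TPM, whereas ADM was at 13.9 to 58.3 against 116 to 321 TPM and BNIP3, a mitophagy receptor, at 0.289 to 1.37 against 51.0 to 80.6 TPM. VEGFA overlapped, with medians of 236 and 56.0 TPM.

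**Figure D3:**
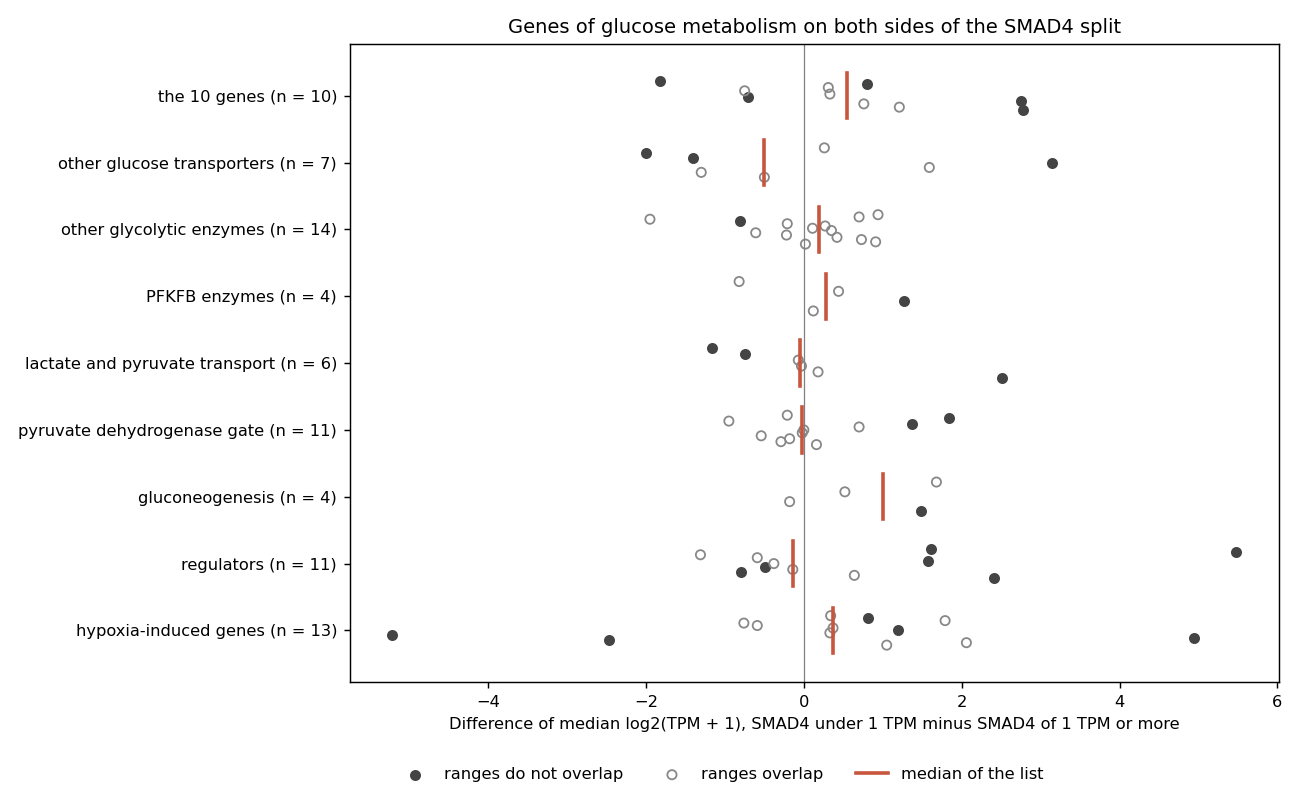
Difference between the medians of log2(TPM + 1), SMAD4-low minus SMAD4-expressing libraries, for the 10 genes and for the expressed genes of each list. Filled points are genes whose ranges do not overlap, open points overlap, and red bars are list medians, which run from -0.50 for the other glucose transporters to 1.00 for gluconeogenesis.

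The spread of each gene over the libraries of a side is given beside the error within a library. Over the 30 resampled estimates the authors deposited for each library, which cover counting and the assignment of reads only, the SD of log2(TPM + 1) was 0.00814 to 0.0986. The SD over libraries was 5.56 to 35.8 times as large, depending on the gene and side. With 1 library per SCDCL, differences between SCDCLs and between cultures or library preparations cannot be told apart, so this ratio does not show that SCDCLs differ. Among SMAD4-expressing libraries, SLC2A1 and HK2 varied most on this scale, with SDs of 0.634 and 0.681, and 90.4% and 91.9% of the 13826 genes expressed there had a smaller SD. The pseudocount of 1 shrinks the SD of low genes. As SD over mean of TPM, SLC2A3, near the limit of detection, varied more there, at 108% against 54.5% for SLC2A1 and 62.7% for HK2. Among SMAD4-low libraries the SDs of SLC2A1 and HK2 were 0.367 and 0.216, above those of 65.8% and 23.2% of 14375 genes. LDHB was the steadiest of the 10 in both groups, with SDs of 0.115 and 0.163, and 1.15% and 8.67% of genes had a smaller one. PFKP followed closely, at 0.167 and 0.168.

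Whether the genes went together from SCDCL to SCDCL was asked separately on each side, since a correlation pooled over both would repeat the split. Each gene was correlated with every expressed gene on log2(TPM + 1), with p-values from 100000 two-sided permutations of the libraries and Benjamini-Hochberg adjustment over all genes tested against it. A pair was called where the larger of its 2 adjusted p-values was under 0.05. In the 12 SMAD4-low libraries 0 of 45 pairs were called and 13 had an unadjusted permutation p under 0.05, all with a positive r, and in the 14 SMAD4-expressing libraries 0 of 36 pairs were called and 5 had an unadjusted p under 0.05, 1 of them with a negative r. The share of all genes at an unadjusted p under 0.05 is not given here. The counts of 13 and 5 are therefore not read as a result about these genes. Over all tests of these genes against every other gene, 1.35% and 0.00482% had an adjusted p under 0.05. That share uses the adjusted p of the member alone, a looser rule than the larger of 2. In the SMAD4-low libraries it ranged from 0% for SLC2A3, HK2, PGK1, LDHB and SLC16A1 to 3.68% for SLC2A1 and 7.88% for LDHA. SLC2A3 had a mean under 1 TPM on the SMAD4-expressing side and entered no pair there.

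The 3 pairs with the smallest adjusted p-values in the SMAD4-low libraries, none of them called, were those among SLC2A1, LDHA and SLC16A3, genes of uptake, lactate formation and export. LDHA and SLC16A3 had r = 0.83 (permutation p = 0.00059, adjusted p = 0.0541) and rho = 0.81 (permutation p = 0.00229, adjusted p = 0.0596). For SLC2A1 and SLC16A3, r was 0.81 (permutation p = 0.00118, adjusted p = 0.0630) and rho 0.87 (permutation p = 0.00048, adjusted p = 0.0704). For SLC2A1 and LDHA, r was 0.76 (permutation p = 0.00445, adjusted p = 0.0735) and rho 0.74 (permutation p = 0.00758, adjusted p = 0.136). Without the 2 libraries farthest from the median of the first gene, r was 0.77, 0.84 and 0.88 in the same order, and with any 1 library left out it stayed between 0.67 and 0.92. Within the 7 SMAD4-low libraries labelled Panc-1, r was 0.80, 0.88 and 0.67, and the 5 labelled BxPC3 were too few for a value. Libraries 21, 26 and 1 were the highest 3 in all of these genes.

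The pairs among SLC2A1, HK2 and PGK1 had values of r of similar size and were not called either. HK2 and PGK1 had r = 0.84 (permutation p = 0.00082, adjusted p = 0.348) and rho = 0.86 (permutation p = 0.00070, adjusted p = 0.293). For SLC2A1 and PGK1, r was 0.81 (permutation p = 0.00165, adjusted p = 0.193) and rho 0.85 (permutation p = 0.00107, adjusted p = 0.164), and for SLC2A1 and HK2, r was 0.71 (permutation p = 0.0105, adjusted p = 0.411) and rho 0.74 (permutation p = 0.00765, adjusted p = 0.318). Leaving out the 2 farthest libraries gave 0.72, 0.81 and 0.56, and within the libraries labelled Panc-1 r was 0.70, 0.78 and 0.60. The share of expressed genes with a lower r to the first gene was 99.9%, 98.1% and 95.3%. SLC16A1 and LDHA, also not called, had r = 0.76 (permutation p = 0.00486, adjusted p = 0.0979) and rho = 0.70 (permutation p = 0.0140, adjusted p = 0.171), with r = 0.73 both without the 2 farthest libraries and within the libraries labelled Panc-1.

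LDHA and LDHB were near 0 there, with r = 0.01 (permutation p = 0.973, adjusted p = 0.996) and rho = -0.01 (permutation p = 0.974, adjusted p = 0.997). This value depended on the scale, since r was 0.59 on log2(TMM CPM + 1).

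In the SMAD4-expressing libraries other pairs led, and the difference in r between the sides was not tested. LDHA and LDHB had r = 0.77 (permutation p = 0.00163, adjusted p = 0.157) and rho = 0.84 (permutation p = 0.00035, adjusted p = 0.116), and within libraries labelled BxPC3 and Panc-1 r was 0.83 and 0.64. SLC2A1 and HK1 had r = 0.81 (permutation p = 0.00074, adjusted p = 0.303) and rho = 0.64 (permutation p = 0.0149, adjusted p = 0.722), which fell to r = 0.62 without library 23, the highest in both, and to 0.67 without the 2 farthest libraries. SLC2A1 and HK2 had r = 0.61 (permutation p = 0.0185, adjusted p = 0.715) and rho = 0.63 (permutation p = 0.0190, adjusted p = 0.822). HK1 and HK2 had r = 0.56 (permutation p = 0.0323, adjusted p = 0.749) and rho = 0.71 (permutation p = 0.00673, adjusted p = 0.793). Without the 2 farthest libraries these were 0.65 and 0.79, and within the labels BxPC3 and Panc-1 they were 0.54 and 0.81, and 0.60 and 0.48. For SLC2A1 and HK1 the within-label values were 0.75 and 0.90.

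The pairs among SLC2A1, LDHA and SLC16A3, which had led in the SMAD4-low libraries, gave other values here, not all of them negative. SLC2A1 and SLC16A3 kept a positive r of 0.41 (permutation p = 0.139, adjusted p = 0.709) and rho = 0.38 (permutation p = 0.186, adjusted p = 0.907). Their r was 0.41 without the 2 farthest libraries, and 0.53 and 0.30 within the labels BxPC3 and Panc-1. SLC2A1 and LDHA had r = -0.24 (permutation p = 0.407, adjusted p = 0.857) and rho = -0.30 (permutation p = 0.303, adjusted p = 0.945), with -0.17 without the 2 farthest libraries and -0.72 and 0.25 within the labels BxPC3 and Panc-1. LDHA and SLC16A3 had r = -0.43 (permutation p = 0.120, adjusted p = 0.659) and rho = -0.56 (permutation p = 0.0407, adjusted p = 0.459), with -0.44 without the 2 farthest and -0.58 and -0.02 within the labels. LDHB and SLC16A3 had not led in the SMAD4-low libraries, with r = -0.05 (permutation p = 0.880, adjusted p = 0.980). Here this pair had r = -0.68 (permutation p = 0.00808, adjusted p = 0.368) and rho = -0.76 (permutation p = 0.00238, adjusted p = 0.245), with -0.44 without the 2 farthest and -0.70 and -0.52 within the labels.

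**Figure D4:**
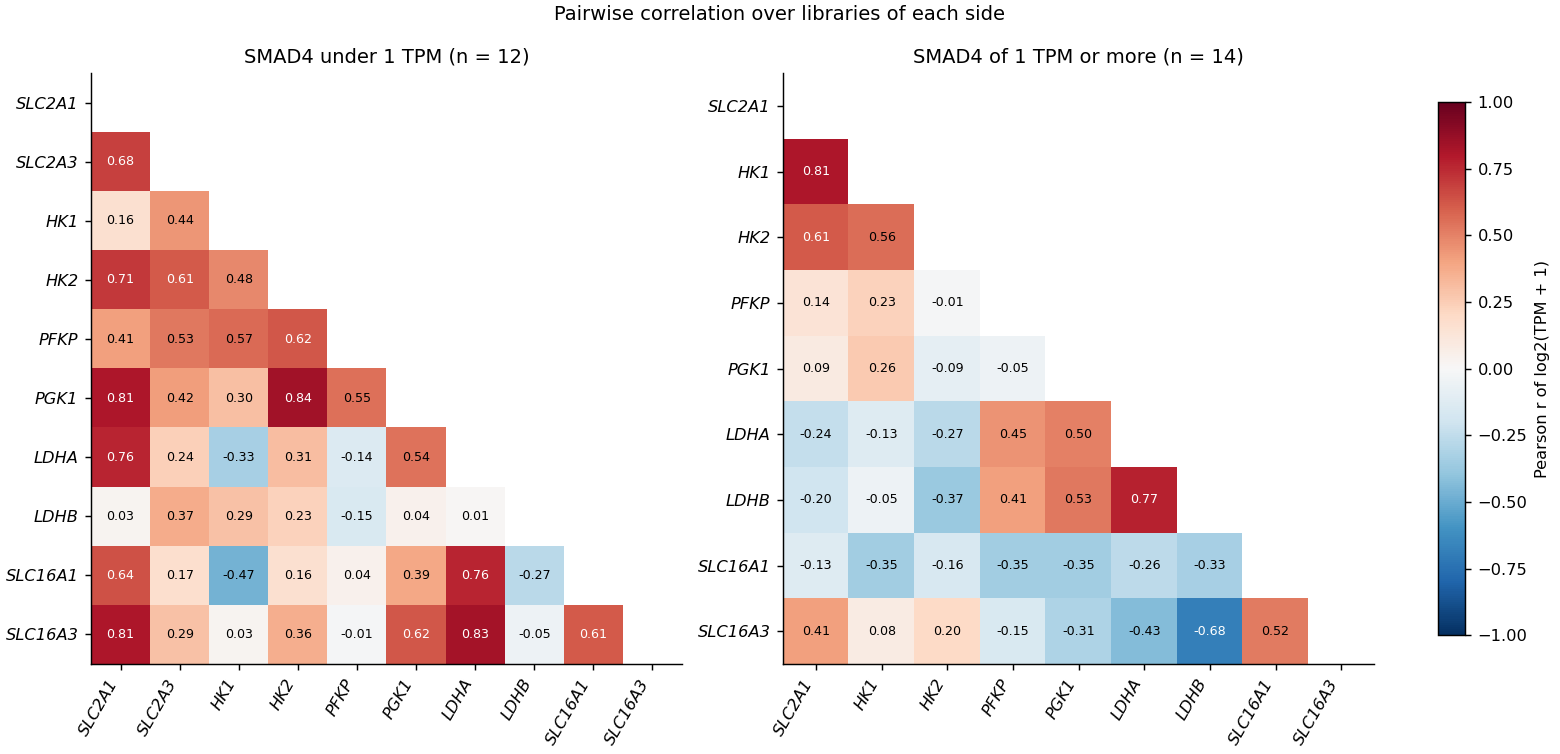
Pearson r of log2(TPM + 1) for each pair of the 10 genes over the 12 SMAD4-low (left) and the 14 SMAD4-expressing libraries (right, without SLC2A3), coloured from -1 (blue) to 1 (red). The highest values are 0.84 for HK2 and PGK1 on the left and 0.81 for SLC2A1 and HK1 on the right, and the lowest is -0.68 for LDHB and SLC16A3 on the right.

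**Figure D5:**
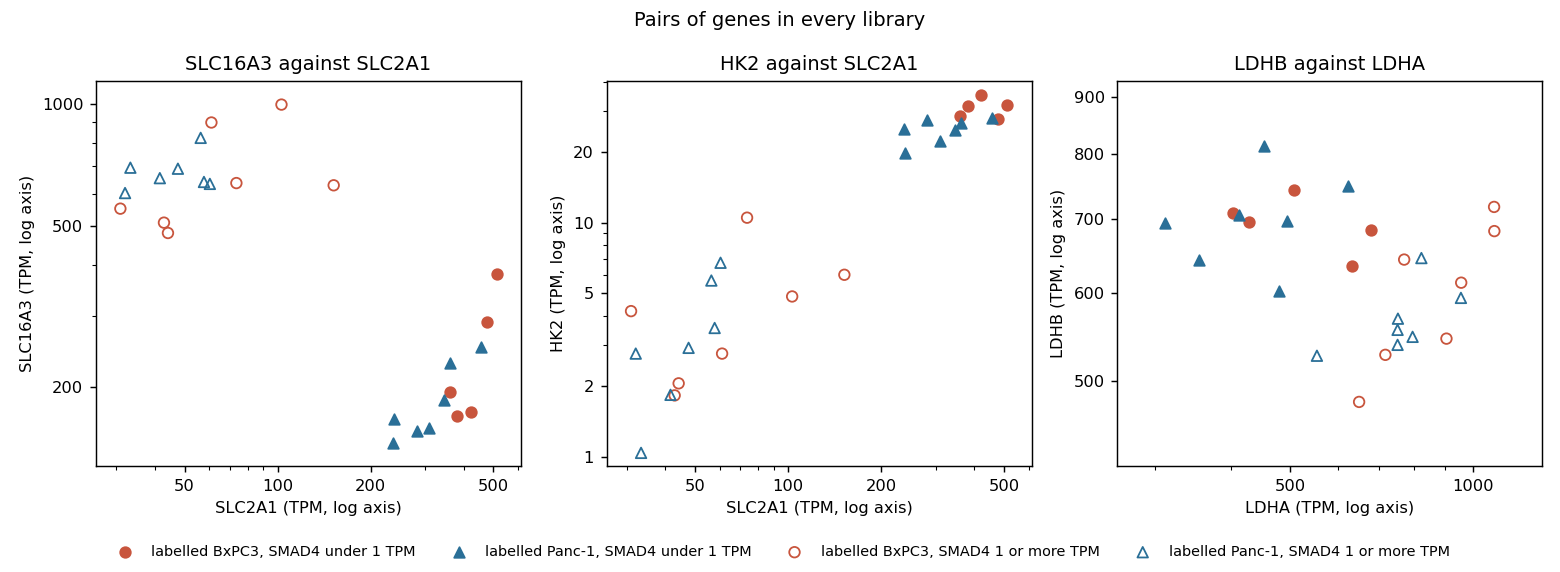
SLC16A3 and HK2 against SLC2A1 and LDHB against LDHA in TPM (log axes), 1 point per library, filled for SMAD4-low and open for SMAD4-expressing libraries, circles labelled BxPC3 and triangles labelled Panc-1. Over the filled points r on the log2(TPM + 1) scale is 0.81 for SLC16A3 and 0.71 for HK2 against SLC2A1, over the open points it is 0.77 for LDHB against LDHA, and none of these pairs was called.

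The genes whose pattern was most like that of a member were taken by the lower of the 2 within-side values of r over 12 and 14 libraries, among 9299 other genes with a mean of at least 5 TPM on both sides. As they were picked as the highest of many, they are a description. MINPP1 was most like SLC2A1, at r = 0.79 and 0.74 in SMAD4-low and SMAD4-expressing libraries. UPP1 was most like SLC16A3, at 0.86 and 0.81, and TMEM39A most like SLC16A1, at 0.85 and 0.82. MRPS18A was most like LDHA, at 0.69 and 0.77, and GSPT1 most like LDHB, at 0.78 and 0.84. KLHL15 was most like PGK1, at 0.78 and 0.77, followed by PLSCR1 at 0.76 and 0.92. DENND4C was most like HK1, at 0.78 and 0.80, and OPTN most like PFKP, at 0.71 and 0.71. For HK2, EIF1 led at 0.76 and 0.77 among 9300 genes.

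The comparison that the labels themselves allow, libraries labelled Panc-1 against those labelled BxPC3, called none of these genes. Each label held SMAD4-low and SMAD4-expressing libraries, so differences between the sides counted as spread within a label. A lack of calls in this fit therefore does not show that these genes are alike in both lines. With edgeR's quasi-likelihood test and Benjamini-Hochberg adjustment, 0 of the 10 genes and 0 of 16008 genes (0%) had an adjusted p under 0.05, while 367 genes, none of the 10 among them, had an unadjusted p under 0.05. DESeq2 called 2 genes, MYH16 and ATP10B, which are named for their calls alone, and limma called 0. The 3 largest log2 fold changes of the 10, Panc-1 over BxPC3, were -0.39 ± 0.646 (SE) for SLC2A3, -0.26 ± 0.540 for SLC2A1 and -0.26 ± 0.197 for LDHA, and each had an adjusted p of 1.00. PGK1, at -0.23 ± 0.113, had an unadjusted p of 0.0530 by the same edgeR fit. With the side of the SMAD4 split as covariate, edgeR again called 0 genes, while 1204 of 16008 had an unadjusted p under 0.05. The 3 members among these were PGK1, SLC2A1 and HK1. PGK1 was at -0.26 ± 0.0735 (p = 0.00154, adjusted p = 0.573 by this edgeR fit). SLC2A1 was at -0.52 ± 0.188 (p = 0.0103, adjusted p = 0.615) and HK1 at -0.15 ± 0.0693 (p = 0.0452, adjusted p = 0.653).

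Within each side of the split, PGK1 had the lower median in the libraries labelled Panc-1, 362 against 436 TPM and 287 against 330 TPM. In the SMAD4-low libraries the 5 labelled BxPC3 had 398 to 515 TPM and the 7 labelled Panc-1 had 328 to 388 TPM, without overlap, and the log2 fold change by edgeR was -0.29 ± 0.127 (SE) with p = 0.0359 and an adjusted p of 0.421. In the SMAD4-expressing libraries the values were 294 to 351 against 227 to 315 TPM, and the edgeR fold change was -0.22 ± 0.0989 with p = 0.0407 and an adjusted p of 0.982. HK2 was at -0.27 ± 0.114 (p = 0.0348, adjusted p = 0.421 by edgeR) in the SMAD4-low libraries and at -0.40 ± 0.426 (adjusted p = 0.982) in the others. SLC2A1 was at -0.41 ± 0.196 (adjusted p = 0.447 by edgeR) and -0.61 ± 0.295 (adjusted p = 0.982). On the SMAD4-low side 0 of 16124 genes (0%) were called, with 1840 at an unadjusted p under 0.05, and on the SMAD4-expressing side 0 of 15161 (0%), with 700. DESeq2 called 35 genes on the SMAD4-low side, none of them a member, in a fit chosen after seeing the data. An interaction of label and side gave an adjusted p of 0.898 for PGK1 by edgeR.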

How the data were processed

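Per the methods, the authors sequenced strand-specific libraries of polyadenylated RNA from both ends and assigned reads to Ensembl transcripts (GRCh38) with kallisto 0.46.1. They then summed to genes with tximport and deposited TPM, which is scaled by transcript length and library total, and estimated counts scaled from TPM and mean transcript length to the library total. The deposited length is that mean in bases. All 30 resampled estimates per library were used. The depth of 27035724 to 34945608 estimated counts limits low genes, above all SLC2A3. Counting error is covered by the resampled estimates, which the authors deposited as counts.

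Of the 41078 genes, 36315 were matched to a symbol. Groups came from the labels, and libraries were also divided at 1 TPM of SMAD4. The members and gene lists were chosen with earlier results of these data known. The members are always given, and of each list up to 4 genes with the largest difference of medians may be named. For each member, 3 genes with the highest within-side r may be named as well. Rounded counts were tested between labels with edgeR 4.0.16 (TMM factors, filterByExpr), and with DESeq2 1.42.0 and limma 3.58.1 as alternatives in R 4.3.3. The SE given with edgeR fold changes was derived from the test, as the absolute log2 fold change over the square root of its F statistic. Correlations used numpy 2.4.6, a mean of at least 1 TPM, a pseudocount of 1 and 100000 permutations. The edgeR fit within the SMAD4-low libraries and the permutation correlation were each tried on simulated data, and the other fits were not. Other scales, pseudocounts and filters and leaving out each library were alternatives. Promoter windows came from RefSeq. Response to gemcitabine and protein data were not analysed here.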

Additional observations from a re-analysis of the deposited data

Results flagged for a closer look

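Each of the 10 genes was checked in the 4 groups given by label and SMAD4 side for a library far from the rest, 40 combinations in all, and 2 stood out, where chance marks about 1 group in 20. HK1 was at 62.3 TPM in library 23, labelled BxPC3 and SMAD4-expressing, while the 6 other libraries of that group lay between 37.5 and 45.5 TPM. SLC16A3 was at 823 TPM in library 10, labelled Panc-1 and SMAD4-expressing, while the 6 others lay between 602 and 695 TPM. Library 23 also had the highest SLC2A1 of the SMAD4-expressing libraries, 152 TPM.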

How the results depend on the processing

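The count of genes without overlap between the SMAD4 sides was 5, and it was 4 with TMM CPM or with size factors, as SLC16A1 then overlapped, 6 without library 23, as HK1 then separated, and 5 in the other alternatives. The directions of the 5 genes did not change under any of these scales. DESeq2 called 2 genes between the labels, and 35 genes in the SMAD4-low libraries alone, an alternative chosen after seeing the data, where edgeR called 0. Of the pairs of members, 1 was called in the SMAD4-low libraries with a minimum mean of 5 TPM, LDHA and SLC16A3 (adjusted permutation p = 0.0467), and 1 in the SMAD4-expressing libraries on TMM CPM, LDHA and LDHB (adjusted permutation p = 0.0474). The r of LDHA and LDHB in the SMAD4-low libraries changed sign as a rank correlation (-0.01) and ranged from -0.12 to 0.18 when 1 library was left out. The median SD of the 10 genes was 0.278 in the SMAD4-low libraries, and 0.318 on TMM CPM, 0.207 with a pseudocount of 5 and 0.238 as a median absolute deviation. In the SMAD4-expressing libraries it was 0.273, and 0.217 with a pseudocount of 5. The cause was not tested. Of 693 alternative values, 678 kept their direction and side of the threshold or stayed within the spread. No paired analysis was possible because the replicate numbers are library numbers that no 2 groups share. The depth limits SLC2A3 most.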
